A study of Mus musculus with 25 samples.

Results

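Cx3cr1, Ccr1, Ccr2, Ccr7, Cxcr2 and Cxcr4 are 6 receptors for chemokines, chosen by name from the 22439 gene symbols of the deposited count tables. All 6 have a row in every table. They were measured by droplet-based single-cell RNA-seq in 25 libraries that hold 30958 myeloid cells of mouse spinal cord. Each library pools tissue from 1 to 3 mice and is the replicate here, so p-values measure the spread between such pools.

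Cells came from a lesion segment of 5 mm, or from the cord after laminectomy alone (Ctrl), which exposes the cord without a lesion. There were 2 Ctrl libraries. The days after injury, written D1 to D21, had 5 (D1), 4 (D2), 7 (D3), 5 (D10) and 2 libraries (D21), the number being the day. All mice carried Cx3cr1CreERT2, an inducible Cre recombinase placed at the Cx3cr1 locus, so the gene measured here is also the gene that was altered, and the number of intact copies is not given in the labels. The 12 libraries called mixed came from mice of the strain Cx3cr1CreERT2 and held YFP+ cells. The other strain, Cx3cr1CreERT2:R26tdTomato, adds a red reporter (RFP) that Cre switches on. Its RFP+/YFP+ cells gave 5 resident libraries and its RFP-/YFP+ cells gave 7 infiltrating libraries. Mixed libraries are therefore of 1 strain and the other 2 sorts of the other. Between mixed and other libraries, effects of sort and strain on a level cannot be told apart. Resident and infiltrating libraries share a strain. The RFP side of the sort also reads Cre that was made from the Cx3cr1 locus, so Cx3cr1 is not independent of the sort. Cells of every sort were taken as YFP+. The mixed strain names no altered locus other than Cx3cr1, so YFP may read that locus too. Levels of Cx3cr1 in each cell type are therefore levels among YFP+ cells. Labels give 1 sex per library, and both sexes were used. The mixed Ctrl library was female, the resident Ctrl library was male and all D1 mixed libraries were male. For the infiltrating D2 library a deposited sex code differs from the label (female), and the label was used. Ages are not given in the labels. In 1 library at D3 the title says infiltrating and the sort label RFP+/YFP+. It is called D3_conflict 1 and enters no comparison between groups.

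Chemokine receptors are 7-helix proteins on the cell surface that couple to inhibitory G proteins and steer cells along gradients of small secreted ligands. In the nervous system Cx3cr1 is the receptor of microglia for the neuronal ligand Cx3cl1. Ccr2, the receptor for Ccl2, brings inflammatory monocytes out of the bone marrow and into injured tissue. Monocytes that mature in tissue are known to lose Ccr2 and gain Cx3cr1, and mice with a marked Cx3cr1 or Ccr2 locus are widely used to separate resident from infiltrating cells.

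On GRCm38, by GENCODE M21, 3 of the genes lie on chromosome 9: Cx3cr1 at chr9:119901616-120069879 on the minus strand, Ccr1 at chr9:123962124-123968692 on the minus strand and Ccr2 at chr9:124101950-124113557 on the plus strand. Cxcr2 lies at chr1:74153989-74161246 (plus strand), Cxcr4 at chr1:128588199-128592293 (minus strand) and Ccr7 at chr11:99144196-99155077 (minus strand). All are protein-coding. The promoters of Cx3cr1 and Ccr2 are shown because Cx3cr1 carries the Cre insertion on which the sort rests and Ccr2 is the receptor by which infiltrating monocytes are usually told from microglia. They run from 250 bases before to 50 after the RefSeq start (GRCm38.p6), at chr9:120068247-120068546 on the minus strand for Cx3cr1 and at chr9:124101933-124102232 on the plus strand for Ccr2, and are written 5′ to 3′ along the gene. By the GENCODE coordinates above, the whole Cx3cr1 window and most of the Ccr2 window lie within the annotated gene. Capitals mark the letters AGGAA (the core that ETS factors such as PU.1 read, or TTCCT on the other strand) and TGTGGT (the core that RUNX factors read, or ACCACA on the other strand).
Cx3cr1: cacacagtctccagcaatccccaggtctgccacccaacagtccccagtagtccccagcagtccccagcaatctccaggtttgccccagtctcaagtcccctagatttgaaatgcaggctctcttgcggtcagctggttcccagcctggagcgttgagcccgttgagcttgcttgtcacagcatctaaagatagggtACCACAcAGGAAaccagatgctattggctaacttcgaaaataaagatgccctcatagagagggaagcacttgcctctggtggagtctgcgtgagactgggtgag
Ccr2: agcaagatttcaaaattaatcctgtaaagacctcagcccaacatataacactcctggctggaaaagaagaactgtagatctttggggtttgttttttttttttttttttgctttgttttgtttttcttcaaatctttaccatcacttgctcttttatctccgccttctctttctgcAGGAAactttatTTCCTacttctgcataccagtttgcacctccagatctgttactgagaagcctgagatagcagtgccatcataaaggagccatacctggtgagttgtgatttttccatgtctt
The Cx3cr1 window held 1 match to the ETS core and 1 to the RUNX core, separated by a single base. The Ccr2 window held 2 matches to the ETS core and 0 to the RUNX core. Of all 32851 RefSeq promoters of this length, 66.7% held the ETS core, 16.8% the RUNX core and 11.8% both. The motifs were picked with the sequences in view, a match is only a description, and no match says only that the letters are not in this window.

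Levels are given as CPM, the counts (UMIs, each 1 captured RNA molecule) of the gene per 1e6 counts summed over the cells of 1 type in 1 library, for sums of at least 20 cells. Cell types are the authors' codes, named here from marker genes. The 13289 microglia had 9 of 9 microglia markers. The 12841 macrophages, which take in monocytes, had 7 of 9 macrophage and 6 of 8 monocyte markers. The 2712 dendritic-like cells had 5 of 10 dendritic cell markers, and the 2116 neutrophil-like cells had 7 of 7 neutrophil markers. Libraries held 155 to 3800 cells and 486649 to 33204422 counts, and 127 cell barcodes occurred in more than 1 library. The codes were made from all genes, the receptors included, so the levels by type below are descriptions without a test.

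The receptors divided among the cell types. Cx3cr1 was present in microglia, macrophages and dendritic-like cells and close to 0 in neutrophil-like cells, where 4 libraries gave 0 to 3.51 CPM. Its range over libraries was 4.12 to 1609 CPM in microglia (median 70.1, 19 libraries), 0 to 465 in macrophages (median 35.5, 19 libraries) and 7.79 to 165 in dendritic-like cells (median 57.7, 9 libraries). These 3 ranges overlap widely. In the same library, macrophages had less Cx3cr1 than microglia in 11 of 14 libraries, and dendritic-like cells less than macrophages in 6 of 9. The 3 libraries with more in macrophages were D1_mixed 1 (8.47 against 6.13 CPM in microglia) and both infiltrating libraries that had the 2 types. These were D10_infiltrating 2 (465 against 47.6) and D21_infiltrating 1 (241 against 195). Within microglia and macrophages the level differed with the sort, as shown further on.

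Ccr2 was a receptor of macrophages and dendritic-like cells. Its median was 0.641 CPM in microglia (0 to 31.2), 311 in macrophages (2.78 to 600), 564 in dendritic-like cells (190 to 889) and 4.47 in neutrophil-like cells (0 to 30.9). In the same library it was higher in macrophages than in microglia in 14 of 14 libraries, and higher in dendritic-like cells than in macrophages in 9 of 9.

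Ccr1, which binds Ccl3, Ccl5 and related ligands, was highest in neutrophil-like cells, at 343, 773, 917 and 1053 CPM in the 4 libraries. The median was 288 in dendritic-like cells (215 to 472), 148 in macrophages (0 to 662) and 10.53 in microglia (0 to 155). In neutrophil-like cells it exceeded the macrophages of the same library in 4 of 4 libraries.

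Cxcr4, the receptor for Cxcl12 that holds immature myeloid cells in the bone marrow, followed a similar order without dendritic-like cells in second place. It was 208 to 545 CPM in neutrophil-like cells, 11.0 to 156 in macrophages (median 77.6), 2.80 to 56.0 in dendritic-like cells (median 46.6) and 0 to 77.9 in microglia (median 3.14). Macrophages stood above microglia in 14 of 14 libraries and above dendritic-like cells in 9 of 9.

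Ccr7, which guides mature dendritic cells to lymph nodes, and Cxcr2, which brings neutrophils to tissue, were each nearly confined to 1 code in these sums. Ccr7 reached 0 to 175 CPM in dendritic-like cells (median 72.7, 9 libraries) and was 0 in 12 of 19 macrophage sums, 16 of 19 microglial sums and 4 of 4 neutrophil-like sums. Outside dendritic-like cells its highest value was 21.2 CPM (5 counts, all in 1 cell) in the 28 macrophages of D1_mixed 1. Cxcr2 was 281, 838, 1058 and 2374 CPM in neutrophil-like cells, and at most 7.30 CPM in any sum of another type. Cxcr2 was also 1 of the 10 genes highest by fold in that code against all other cells, a list that was not used to name it.

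**Figure D1:**
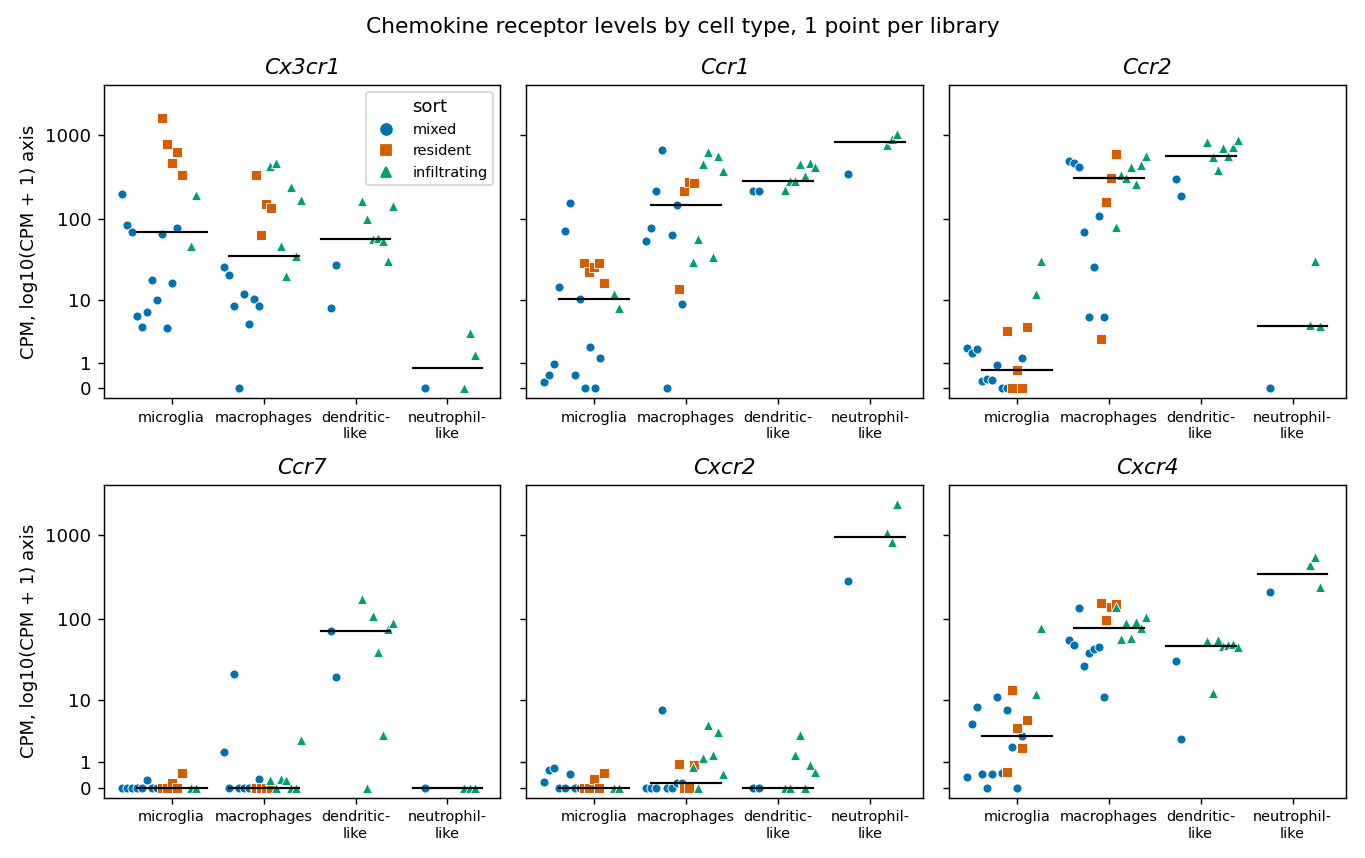
CPM of each receptor by cell type on a log10(CPM + 1) axis, with 1 point for each library that had at least 20 cells of the type. Colour and shape give the sort, and black bars are medians over libraries. Cxcr2 lies between 281 and 2374 in neutrophil-like cells, and Ccr2 is between 190 and 889 in dendritic-like cells but at most 31.2 in microglia.

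Cx3cr1 in microglia was low early after injury. In mixed libraries it was 201 CPM in Ctrl and 6.13, 4.27 and 6.96 CPM at D1. D2 libraries had 10.0 and 66.6 CPM (the latter from 23 cells), D3 libraries 4.12, 16.9 and 78.6, D10 libraries 85.0 and 70.1, and the D21 library 18.1. All 3 D1 libraries lay below the control library and below both D10 libraries, while the D3 libraries spanned the range from D1 to D10.

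Resident libraries started higher. The resident control had 1609 CPM. D2 followed with 464, D3 with 643 and 340, and D10 with 786, all below that control. No resident library was taken at D1.

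The microglial sums were compared over time with time point, sex and sort as terms (17 sums), in edgeR's quasi-likelihood test with Benjamini-Hochberg adjustment over 10801 genes. A gene is called at an adjusted p under 0.05. At D1 against Ctrl, Cx3cr1 fell by 4.16 on the log2 scale (SE 0.707, adjusted p = 0.000304). Between D1 and D3 it rose by 2.60 (SE 0.618, adjusted p = 0.0105), a call that was lost without D1_mixed 2 (2.50, adjusted p = 0.0523) or D3_mixed 3 (1.92, adjusted p = 0.0553). The change from D3 to D10 was 0.92 (SE 0.484, adjusted p = 0.236), or -1.53 with the sequencing pool as a term (adjusted p = 0.966), and D10 differed from Ctrl by -0.63 (SE 0.595, adjusted p = 0.568).

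Of the 3 receptors that passed the filter on low counts in microglia (Cx3cr1, Ccr1 and Cxcr4), 2 were called at D1 against Ctrl, where 43.2% of all genes were called. Between D1 and D3 it was again 2 of 3, against 14.7% of all genes. From D3 to D10 it was 0 of 3 (6.22% of all genes), and at D10 against Ctrl 1 of 3 (9.63%). At D1 the share of all genes called was so large that a call there sets a receptor apart little.

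The control libraries shared a sequencing pool with D10 libraries but not with D1 libraries, so the D1 comparison and the pool cannot be told apart. No pool held both a D1 and a D3 microglial sum of the fit either, so the same is true of the changes from D1 to D3. Within the pool of Ctrl_mixed 1, Cx3cr1 was 201 CPM in the control and 85.0 and 70.1 CPM at D10. Within the pool of Ctrl_resident 1 it was 1609 CPM in the control, 464 at D2 and 786 at D10. From Ctrl to D1 and from D1 to D3, summed microglia markers moved in the same direction as Cx3cr1. They were 24922 to 29206 CPM in Ctrl, 4249 to 7727 at D1 and 9169 to 12540 at D3. At D10 they were 6147 to 13852 CPM (4 sums, 1 of them infiltrating), a range that takes in that of D3. None of those 9 markers was at 0 in Ctrl, D1 or D3. Their part in the change of Cx3cr1 was not tested. In sums over cells, fewer cells that make the RNA and less RNA per cell cannot be told apart from the CPM alone.

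Shares of microglia with a Cx3cr1 UMI were also compared at 1 depth. After each cell was thinned to 1500 UMIs (leaving out 1461 of 13212 shallower microglia), 25.9% of cells had a UMI in Ctrl_mixed 1 and 0.502% to 0.963% in the 3 D1 libraries. Without thinning the shares were 48.9% and 1.36% to 2.17%. In neutrophil-like cells, which should lack the gene but were sorted as YFP+ too, the thinned share was 0% to 0.481%. That range came from 4 other libraries, none of them mixed at D1, so the background within the D1 mixed libraries was not measured. D3_conflict 1, left out of the range, had 15 Cx3cr1 counts in 897 neutrophil-like cells (7.41 CPM). The median depth was 3062 UMIs in microglia and 2154 in neutrophil-like cells. In Ctrl_resident 1, 88.4% of thinned microglia had a Cx3cr1 UMI.

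**Figure D2:**
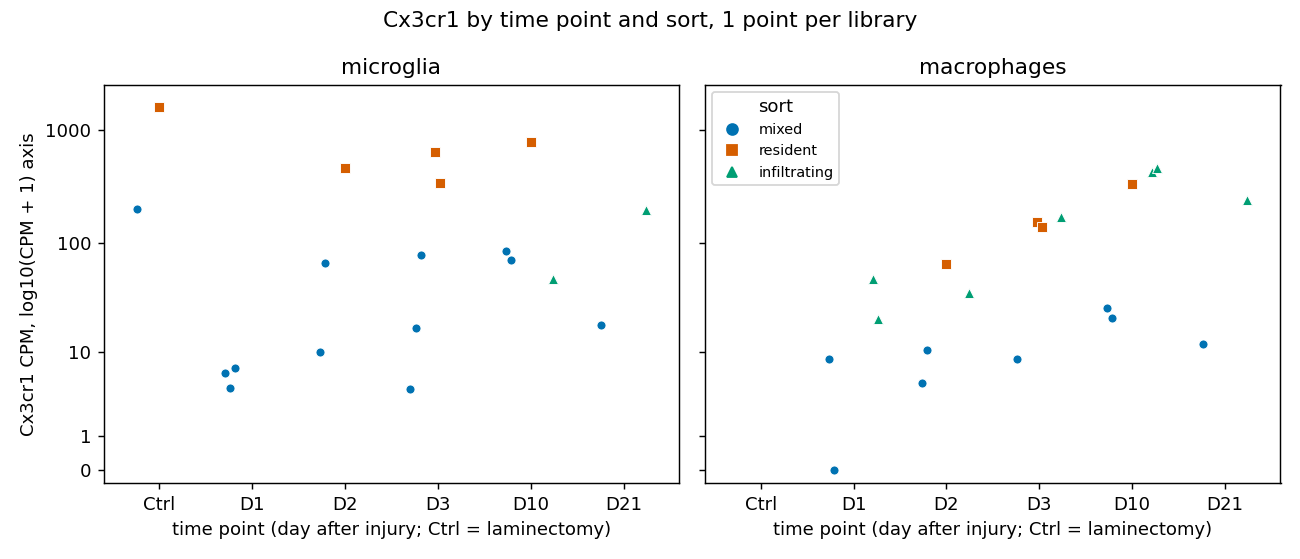
Cx3cr1 CPM in microglia (left) and macrophages (right) by time point on a log10(CPM + 1) axis, with 1 point per library, coloured by sort. Mixed libraries lie below the resident ones in microglia and below both other sorts in macrophages at the same time point, and the D1 mixed microglia are at 4.27 to 6.96.

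Cx3cr1 was lower in mixed than in resident libraries in microglia and lower than in infiltrating libraries in macrophages. In microglia, mixed libraries gave 4.12 to 201 CPM and resident ones 340 to 1609, with no overlap. The fitted difference, mixed against resident, was -3.63 on the log2 scale (SE 0.414, adjusted p = 0.00124 in edgeR). In macrophages, mixed libraries gave 0 to 26.03 CPM and infiltrating ones 20.4 to 465, overlapping in the D10 mixed and D1 infiltrating libraries. There the difference was -3.57 (SE 0.413, adjusted p = 0.0051 in edgeR).

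Few other genes did so. Only 16 of 10801 genes were called between mixed and resident microglia (0.148%), among them Ccr1 as the other receptor, and 1 of 8577 genes between mixed and infiltrating macrophages (0.0117%), which was Cx3cr1 itself. At an unadjusted p under 0.05, 492 and 910 genes passed, and DESeq2 called 59 and 104. In macrophages the call was lost with the sequencing pool as a term (-4.28, adjusted p = 0.0951), without D21_infiltrating 1 (-3.51, adjusted p = 0.064) and without D21_mixed 1 (-3.52, adjusted p = 0.0674), while the size held. In microglia the call of Cx3cr1 held under all 23 alternatives run, but the pool could not be among them: mixed and resident microglia had no pool in common, so sort and pool cannot be told apart there. Cxcr4 did not pass in microglia, nor did Ccr1, Ccr2 or Cxcr4 in macrophages. In macrophages the values, mixed against infiltrating, were -2.04 for Ccr1 (SE 0.651, adjusted p = 0.33), -2.38 for Ccr2 (SE 0.826, adjusted p = 0.349) and -0.88 for Cxcr4 (SE 0.382, adjusted p = 0.442). Cxcr4 in mixed against resident microglia was -1.33 (SE 0.49, adjusted p = 0.807).

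The gap between sorts was seen in each of the authors' clusters with at least 20 cells in both. Pooled Cx3cr1 was lower in mixed than in resident cells in 12 of 12 clusters and lower than in infiltrating cells in 11 of 11. In cluster 1, which held the control microglia, it was 201 CPM in mixed and 1609 CPM in resident cells, each from 1 library. In cluster 4 it was 115 against 1021, in cluster 5 it was 8.14 against 331, and in cluster 9, a macrophage cluster, 8.15 against 295 in resident and 437 in infiltrating cells. These pools join libraries of different days. In cluster 9, D3_mixed 3 gave 2676 of 2707 mixed cells, D10_resident 1 gave 109 of 151 resident cells and D10_infiltrating 1 gave 432 of 606 infiltrating cells. Day and sort therefore cannot be told apart in such a pooled value, nor in clusters 4 and 5, as no resident library was taken at D1. Ccr2 and Cxcr4 were likewise lower in mixed than in infiltrating cells in 11 of 11 clusters. Against resident cells the 12 clusters were divided: Ccr2 was lower in mixed cells in 9 and higher in 2, and Cxcr4 lower in 10 and higher in 2.

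**Figure D3:**
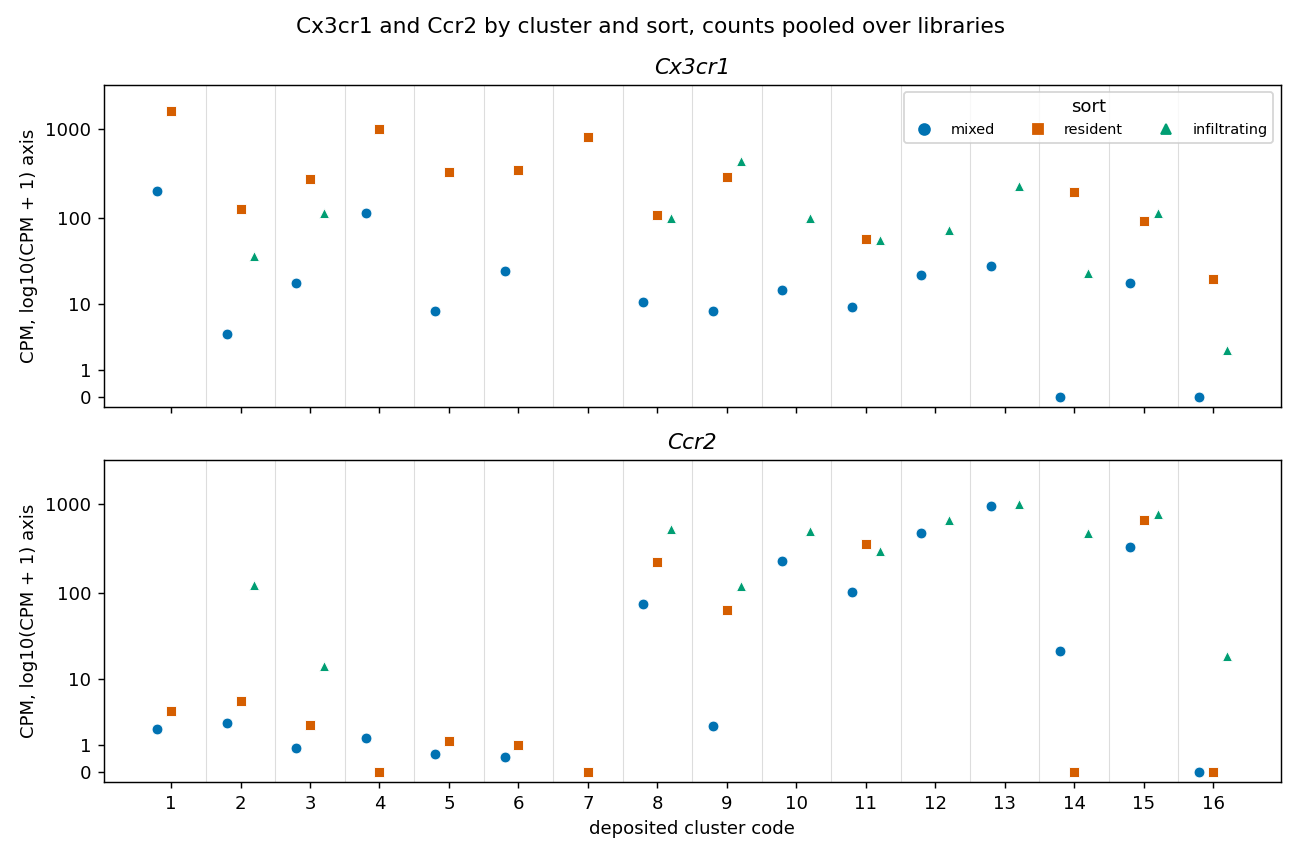
Cx3cr1 and Ccr2 CPM by deposited cluster code and sort, counts pooled over libraries, for cluster and sort pairs of at least 20 cells, on log10(CPM + 1) axes. Cx3cr1 is lower in the mixed than in the resident or infiltrating cells of each cluster that has both, and Ccr2 is at most 5.24 in the mixed and resident cells of clusters 1 to 7.

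In macrophages Cx3cr1 was higher at D10 than at D1. Infiltrating libraries of D1 had 47.8 and 20.4 CPM, that of D2 35.5, that of D3 169, those of D10 430 and 465, and that of D21 241. Mixed libraries of D1 had 8.47 and 0, those of D2 4.78 and 10.4, that of D3 8.47, those of D10 26.03 and 21.1, and that of D21 11.9. Within both sorts the D10 libraries lay above all libraries of other times, and the resident libraries, which the fit did not use, ran from 64.4 at D2 over 152 and 138 at D3 to 335 at D10.

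Over 15 macrophage sums, Cx3cr1 rose by 3.44 on the log2 scale from D1 to D10 (SE 0.545, adjusted p = 0.00193 in edgeR). It was 1 of 2 receptors called among the 4 that passed the filter (Cx3cr1, Ccr1, Ccr2 and Cxcr4), where 14.6% of 8577 genes were called. In infiltrating libraries alone the rise was 3.71 (adjusted p = 0.00438). In mixed libraries alone it was 3.01 (adjusted p = 0.0568), and without the sort as a term 3.47 (adjusted p = 0.0606). From D1 to D3 the value was 1.84 (SE 0.616, adjusted p = 0.647) and from D3 to D10 it was 1.60 (SE 0.559, adjusted p = 0.179).

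No sequencing pool held macrophage sums of both D1 and D10, so this comparison and the pool cannot be told apart either. Summed microglia markers were 292 to 1263 CPM in the D1 macrophage sums and 844 to 2765 CPM in the 5 D10 sums, with up to 3 of the 9 markers at 0 at D1. These markers moved with Cx3cr1, and their part in its rise was not tested. The macrophage code also held different clusters at the 2 times. In the infiltrating libraries, 37.1% and 66.6% of macrophages were in cluster 11 at D1, and 78.7% were in cluster 9 and 57.8% in cluster 3 in D10_infiltrating 1 and D10_infiltrating 2. The D10 mixed libraries had 39.6% and 44.1% in cluster 3, where the 2 D1 mixed libraries had 0% and 9.26%. The part of this make-up in the changes between D1 and D10 was not tested.

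Ccr2 in macrophages showed no shared course. At D1 it was 311 and 424 CPM in infiltrating libraries and 415 and 70.5 in mixed ones. At D10 it was 80.3 and 342 in infiltrating libraries and 495 and 475 in mixed ones, so the groups overlapped. The fitted change from D1 to D10 was 0.45 (SE 0.881, adjusted p = 0.781 in edgeR).

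The lowest Ccr2 levels lay in single libraries. At D3, 563 CPM in D3_infiltrating 1 stood against 5.94 in D3_mixed 3, and 312 and 600 in the resident libraries. D10_resident 1 had 2.78 CPM and D21_mixed 1 had 5.97, with 3 and 2 counts. The macrophages of D3_mixed 3 were 88.6% cluster 9 (3019 cells), those of D10_resident 1 were 81.3% cluster 9, and those of D21_mixed 1 were 91.0% cluster 3, whereas D3_infiltrating 1 had 56.8% cluster 11 and 3.76% cluster 9. D3_mixed 3 gave 2676 of the 3554 cells of cluster 9, so its level is given by sort: 2.25 CPM of Ccr2 in mixed, 119 in infiltrating and 64.3 in resident cells. In infiltrating cells, cluster 11 had 294, cluster 12 had 659 and cluster 13 had 1014.

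D3_mixed 3 is 1 of only 2 macrophage sums at D3 in the fit, so what is seen there depends on it. Between D1 and D3, 0 of 8577 genes were called in edgeR (0%), with 622 at an unadjusted p under 0.05 and 36 called by DESeq2. The fitted value for Ccr2 was -2.11 (SE 1.25, adjusted p = 0.732), and -0.65 without D3_mixed 3. Leaving out each library in turn gave -4.95 to -0.65. From D3 to D10, 0 of the 4 receptors and 0.746% of all genes were called. The value for Ccr2 was 2.56 (SE 1.29, adjusted p = 0.356). It was 5.95 in mixed libraries alone and -0.94 in infiltrating libraries alone, each with 1 library at D3.

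UMIs of both receptors in 1 cell were counted among macrophages at 1 depth. Of cells thinned to 1500 UMIs, 8.60% had a UMI of Cx3cr1 and of Ccr2 in D3_infiltrating 1, 6.25% and 10.8% in the resident D3 libraries (2 and 8 cells), 2.82% and 1.08% in the D1 infiltrating and 1.86% and 5.50% in the D10 infiltrating libraries. At full depth the share was 30.9% in D3_infiltrating 1, 18.2% and 5.20% at D1 and 9.11% and 16.4% at D10. In D3_mixed 3 it was 0.0668% thinned and 0.199% at full depth. Neutrophil-like cells reached 0.16% thinned. In thinned dendritic-like cells the share ran from 0% to 14.3%.

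In microglia Ccr2 was near 0 throughout. The 17 sums of the fit held 0 to 11 counts each, or 0 to 4.33 CPM, and the gene did not pass the filter. The thinned share of microglia with a Ccr2 UMI had a median of 0.0418% over libraries. In neutrophil-like cells it was 0% in 3 libraries and 4.65% in D1_infiltrating 2. When every gene with a count was kept, Ccr2 was called lower at D1 than in Ctrl by edgeR, where the 3 D1 libraries held 1 count each and the controls 11 and 7.

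Ccr1 in microglia was high at D1 and low before and after within the mixed libraries. The control had 0.179 CPM (1 count) and the D1 libraries 14.7, 72.4 and 155. Later values were 10.53 and 0 (D2), 2.06, 0 and 1.26 (D3), 0.409 and 0.934 (D10) and 0.435 (D21). The 3 D1 libraries lay above every other mixed library. Resident libraries stayed in a narrow band, with 29.7 CPM in the control and 26.6 (D2), 29.8 and 16.9 (D3) and 22.6 (D10) later.

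Ccr1 rose by 6.88 on the log2 scale at D1 against Ctrl (SE 1.09, adjusted p = 0.000181 in edgeR), with a range of 5.46 to 10.68 when each library was left out in turn, the highest without Ctrl_resident 1. It fell by 6.41 from D1 to D3 (SE 0.905, adjusted p = 0.000342). The later values did not pass, with -0.54 from D3 to D10 (SE 0.947, adjusted p = 0.754) and -0.075 at D10 against Ctrl (SE 0.871, adjusted p = 0.974). For D1 against Ctrl the mixed libraries alone gave 9.06, with 1 control library that held 1 count. From D1 to D3 they gave -6.28 (adjusted p = 0.00398). Without the sort as a term these 2 changes were 3.48 (adjusted p = 0.0596) and -3.36 (adjusted p = 0.0511). Mixed microglia had less Ccr1 than resident ones (-4.01 on the log2 scale, SE 0.692, adjusted p = 0.0312), a call that was lost under 11 of 23 alternatives, with an adjusted p of up to 0.154 when a control library was left out. The neutrophil markers, whose cells had the highest Ccr1, summed to 38.3 to 103 CPM in the D1 microglia and 201 to 220 CPM in the controls, with 3 or 4 of 7 markers at 0. Macrophage markers summed to 1047 to 1530 CPM at D1 and 11.8 to 43.2 CPM in the controls, and monocyte markers to 7.41 to 39.9 and 16.97 to 33.4 CPM. From Ctrl to D1 the macrophage markers rose with Ccr1. At D3 they summed to 713 to 2338 CPM, while Ccr1 was 0 to 2.06 CPM in the mixed libraries. Their part in these changes was not tested.

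In macrophages Ccr1 was high at D1 and lower at D10. It was 461 and 641 CPM in infiltrating and 216 and 662 CPM in mixed libraries at D1, against 30.0 and 57.9 in infiltrating and 55.3 and 77.6 in mixed libraries at D10, with no overlap. It fell by 3.05 on the log2 scale (SE 0.701, adjusted p = 0.0131 in edgeR), and by 3.72 in infiltrating (adjusted p = 0.00257) and 2.60 in mixed libraries alone (adjusted p = 0.00721). The call was lost without D1_mixed 3 (-2.38, adjusted p = 0.0532). Monocyte markers summed to 2352 to 6701 CPM in the D1 and 721 to 5350 CPM in the D10 macrophages of the fit, and macrophage markers to 6456 to 13100 and 1419 to 5999 CPM. The part of these markers and of the clusters given above in the fall of Ccr1 was not tested. At D21 the levels were 35.3 and 0 CPM, and the resident libraries, outside the fit, went from 220 at D2 and 276 and 268 at D3 to 13.9 at D10.

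At D3 the same 2 libraries parted as for Ccr2, with 378 CPM in D3_infiltrating 1 and 8.84 in D3_mixed 3. The fitted change of Ccr1 from D1 to D3 was -3.03 (SE 0.983, adjusted p = 0.647), and -1.64 without D3_mixed 3. Over all libraries left out in turn it ran from -5.10 to -1.64. From D3 to D10 it was -0.022 (SE 0.979, adjusted p = 0.999). In infiltrating cells, pooled Ccr1 was 742 CPM in cluster 12 and 465 CPM in cluster 11. Cluster 9 had 5.30 CPM in mixed, 78.8 in infiltrating and 62.1 in resident cells, the mixed cells being nearly all of D3_mixed 3.

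Cxcr4 in microglia was higher late after injury. It was 0.357 and 0.539 CPM in the 2 controls (2 and 1 counts) and 0.438, 0 and 0.464 at D1. At D2 it was 0.501 and 7.40 in mixed and 4.11 in resident libraries, at D3 it was 0 to 5.30 over 5 libraries, at D10 it was 4.70, 8.17 and 13.3, and at D21 it was 10.9. All 3 D10 libraries and the D21 mixed library lay above both controls and all D1 libraries. Cxcr4 was higher at D10 than in Ctrl by 4.66 on the log2 scale (SE 0.77, adjusted p = 0.00103 in edgeR). Macrophages, in which Cxcr4 was higher, had markers that summed to 11.8 to 43.2 CPM in the control microglia and 967 to 4506 CPM at D10 (4 sums, 1 of them infiltrating), and their part in this change was not tested.

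The control value rests on 3 counts in all, so the size of this change is uncertain. Within pools, Cxcr4 was 0.357 CPM in Ctrl_mixed 1 (exact Poisson 95% interval 0.0433 to 1.29) against 4.70 and 8.17 in the D10 mixed libraries, and 0.539 in Ctrl_resident 1 (0.0137 to 3.01) against 13.3 in D10_resident 1. With the pool as a term the change was 4.69 (adjusted p = 0.000717). The call was lost without Ctrl_resident 1 (3.76, adjusted p = 0.0949) or without D10_resident 1 (4.03, adjusted p = 0.064). The steps from D1 to D3 (2.39, SE 0.845, adjusted p = 0.0663) and from D3 to D10 (1.76, SE 0.554, adjusted p = 0.0657) did not pass, nor did D1 against Ctrl (0.51, SE 1.13, adjusted p = 0.742).

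In macrophages Cxcr4 overlapped between D1 and D10. It was 88.8, 59.4, 136 and 26.8 CPM at D1 and 140, 57.9, 55.3 and 48.8 CPM at D10. The fitted change was 0.015 (SE 0.475, adjusted p = 0.989), with -0.81 from D1 to D3 (SE 0.594, adjusted p = 0.762) and 0.82 from D3 to D10 (SE 0.589, adjusted p = 0.541). D3_mixed 3 was again lowest, at 11.0 CPM.

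**Figure D4:**
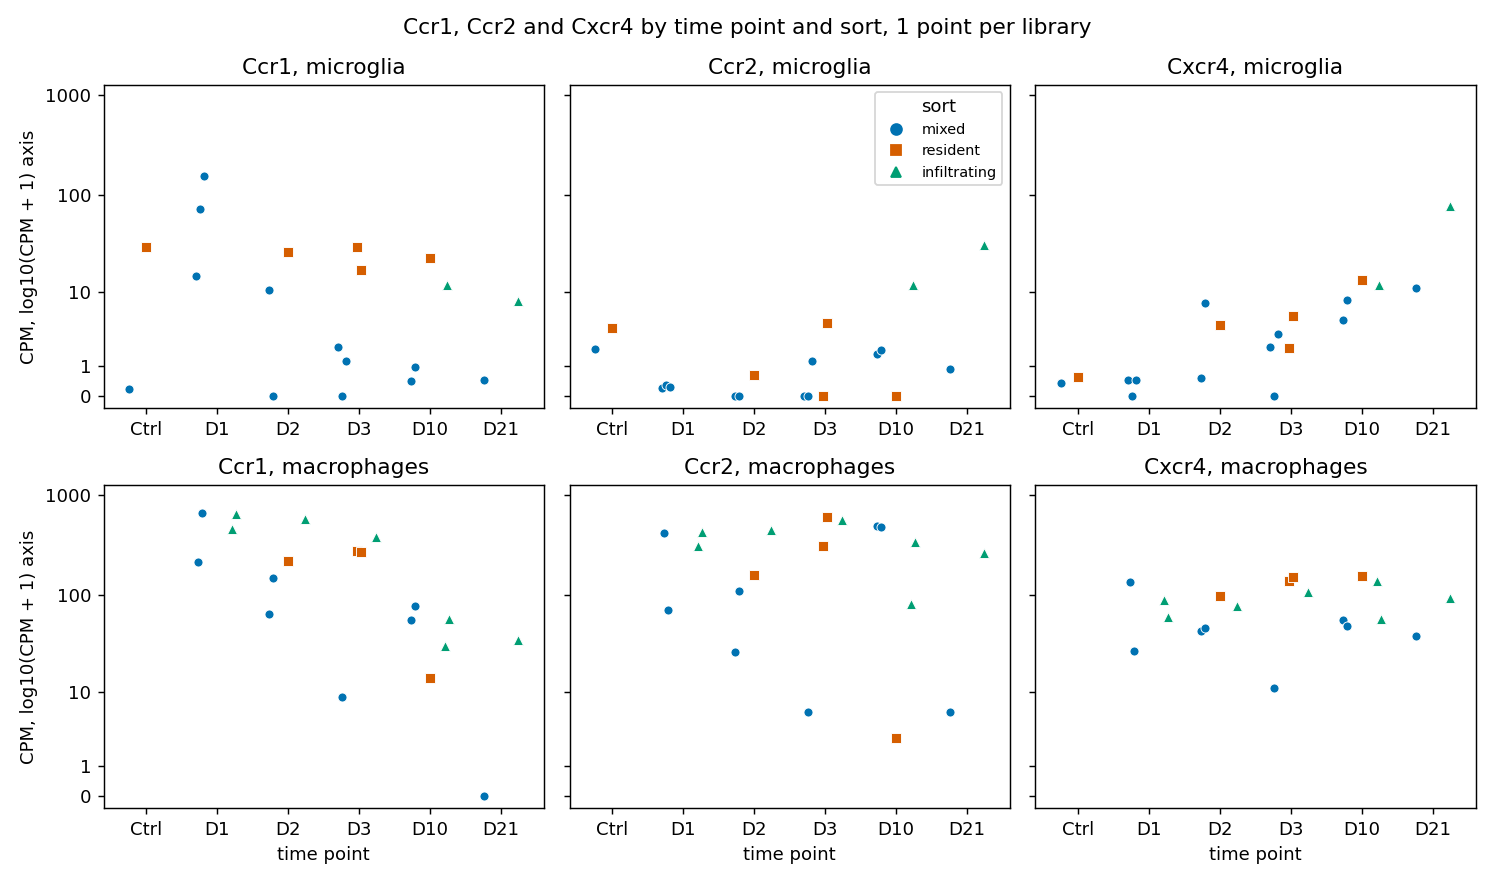
Ccr1, Ccr2 and Cxcr4 CPM in microglia (top) and macrophages (bottom) by time point on log10(CPM + 1) axes, with 1 point per library, coloured by sort. Among mixed libraries, microglial Ccr1 is highest at D1. Macrophage Ccr1 lies between 13.9 and 77.6 at D10, and D3_mixed 3 is the low point at D3 in all 3 macrophage panels.

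In dendritic-like cells no receptor passed the test from D1 to D10. Cx3cr1 was 57.7 and 59.6 CPM at D1 and 165 and 99.9 CPM at D10 in infiltrating libraries, with no overlap. The change was 1.45 (SE 0.325, adjusted p = 0.0976 in edgeR, 9 sums). Microglia markers in these sums were 247 to 367 CPM at D1 and 754 to 1559 CPM at D10, and macrophage markers 601 to 2089 and 167 to 541 CPM. Their part in the values of Cx3cr1 was not tested. Ccr2 was 389 and 702 CPM at D1 and 833 and 552 CPM at D10 (0.69, SE 0.412, adjusted p = 0.515), and Ccr1 288 and 461 CPM against 227 and 285 CPM (-0.23, SE 0.371, adjusted p = 0.833). The value for Cxcr4 was -0.38 (SE 0.579, adjusted p = 0.825). Of the 5 receptors tested, 0 were called, against 0.0562% of 7114 genes, and 944 genes had an unadjusted p under 0.05.

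Ccr7 varied widely among dendritic-like cells. It was 110 and 40.2 CPM in the D1 infiltrating libraries. Those of D2 and D3 had 75.9 and 89.2, those of D10 175 and 0, and that of D21 3.26, with 72.7 and 19.6 in the mixed libraries at D2 and D3. The D10 libraries, with 49 and 31 cells, held both extremes (88 and 0 counts). All 88 counts came from 1 cell of D10_infiltrating 1. The values of D2_mixed 2 and D3_mixed 3 likewise each came from 1 cell, of 35 and 87. The fitted change from D1 to D10 was 0.12 (SE 0.907, adjusted p = 0.972). Only 0% to 4.70% of thinned dendritic-like cells had a Ccr7 UMI, and 0% to 6.64% at full depth, so the level of the code came from a small share of its cells.

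Apart from D3_conflict 1, Cxcr2 was measured in neutrophil-like cells of 4 libraries only, at D1 and D2, and no time comparison was made. It was 1058 and 838 CPM in the D1 infiltrating libraries, 2374 in D2_infiltrating 1 and 281 in D2_mixed 2 (51 cells, 27 counts, exact Poisson 95% interval 185 to 408). Those 4 libraries also gave 446, 545, 242 and 208 CPM of Cxcr4 in that order. D2_infiltrating 1 was highest for Cxcr2, and the D1 libraries for Cxcr4.

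Whole libraries of infiltrating and resident cells were compared next, which asks how the sorts differ in receptor RNA whatever the cell type (12 libraries). Ccr2 was 163 to 715 CPM in the 7 infiltrating libraries (median 394) and 0.9 to 255 CPM in the 5 resident ones (median 31.5), and it was higher by 4.11 on the log2 scale in infiltrating libraries (SE 1.05, adjusted p = 0.0364 in edgeR). Leaving out each library in turn gave 2.58 (without D10_resident 1) to 5.89 (without D3_infiltrating 1). Resident libraries were 67.9% to 100% microglia and infiltrating ones 55.6% to 90.3% macrophages, and the part of this make-up in the difference was not tested. Ccr1 was 51.4 to 646 CPM (median 396) against 19.8 to 160 CPM (median 65.0), higher by 2.25 (SE 0.478, adjusted p = 0.0196). Of the 6 receptors these 2 were called, against 11.2% of 11548 genes.

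The other receptors did not pass. Cx3cr1 was 22.3 to 401 CPM in infiltrating and 256 to 1609 CPM in resident libraries (-1.68, SE 0.516, adjusted p = 0.068). Cxcr2 had a median of 0.897 CPM in infiltrating libraries, with 24.6, 66.8 and 213 in the 3 libraries of D1 and D2 (5.73, SE 1.84, adjusted p = 0.0777). Ccr7 was 0 to 43.0 against 0 to 6.09 CPM (3.48, SE 1.23, adjusted p = 0.102), and Cxcr4 37.6 to 129 against 0.539 to 69.2 CPM (0.80, SE 0.318, adjusted p = 0.142). Both calls were lost when D3_conflict 1 was added as resident (Ccr1 adjusted p = 0.131, Ccr2 0.118) and without D2_infiltrating 1, D2_resident 1 or D3_resident 2. That of Ccr1 was also lost without D10_resident 1, and that of Ccr2 without D10_infiltrating 1, D10_infiltrating 2 or D3_resident 1 and with the pool as a term (3.33, adjusted p = 0.145). Without D2_infiltrating 1, Ccr1 gave 1.39 (adjusted p = 0.16) and Ccr2 3.37 (adjusted p = 0.255).

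**Figure D5:**
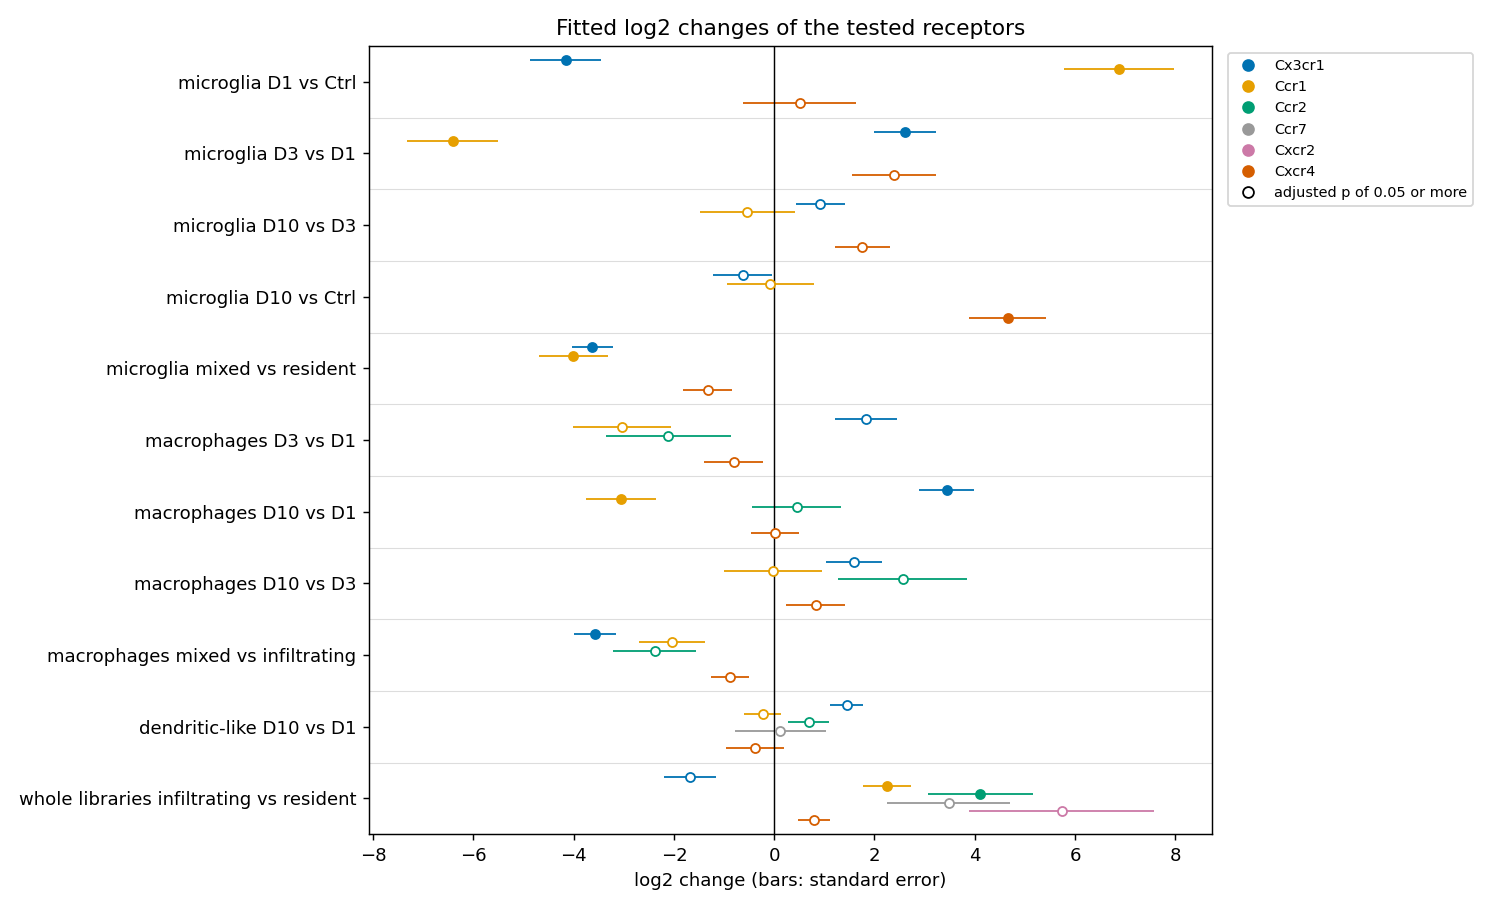
Fitted log2 change of each receptor that passed the filter, by comparison, with the standard error as a bar. Filled points passed an adjusted p of 0.05 in edgeR, and open points did not. Microglial Ccr1 lies at 6.88 at D1 against Ctrl and at -6.41 from D1 to D3, with Cx3cr1 at -4.16 and 2.60.

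The ligands, other receptors and signalling genes of the pathway were taken from 3 lists. In microglia at D1 against Ctrl, 13 of 19 listed ligands passed the filter and 9 rose, with 0 lower (median log2 change 4.73, against 0 over all genes), where 43.2% of all genes were called. Ccl7 is also 1 of the 10 leading genes of the macrophage code, whose marker list summed to 11.8 to 43.2 CPM in the Ctrl and 1047 to 1530 CPM in the D1 microglia, and its part in the ligand counts was not tested. Ccl4 was 22.9 and 28.6 CPM in Ctrl and 708 to 2398 CPM at D1 (6.43, SE 0.792, adjusted p = 2.76e-05 in edgeR), and Ccl3, a ligand of Ccr1, rose by 5.50 (SE 0.714, adjusted p = 4.24e-05). Ccl7, a ligand of Ccr2, rose by 5.94 (SE 1.02, adjusted p = 0.000317). By D3, against D1, the count was 9 lower and 0 higher of 13 (14.7% of all genes were called), with Ccl12 falling by 3.72 (SE 0.55, adjusted p = 0.000487) and Ccl5 by 2.92 (SE 0.827, adjusted p = 0.0265). Cxcl2, also called, came mainly from 1 library, with 1.14 to 202 CPM at D1 and 1 count over the D3 libraries.

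Ccl3 and Ccl4 were still higher at D10 than in Ctrl, by 5.28 (SE 0.685, adjusted p = 0.000118) and 6.11 (SE 0.761, adjusted p = 8.64e-05), among 4 of 13 ligands higher and 0 lower, where 9.63% of all genes were called (831 higher, 209 lower). Mif, which binds Cxcr2 and Cxcr4 as well as Cd74, rose by 2.64 (SE 0.338, adjusted p = 0.000107). From D3 to D10, 1 ligand was higher and 2 were lower (6.22% of all genes).

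In macrophages from D1 to D10, 10 of 13 tested ligands fell and 0 rose (median log2 change -4.25, against 0.02 over all genes), where 14.6% of all genes were called. The different clusters at D1 and D10 described above apply here too. Ccl7 was 1377 to 3635 CPM at D1 and 0 in 3 of 4 libraries at D10 (8.18 CPM in the other). Cxcl3, a ligand of Cxcr2, was 103 to 8653 CPM at D1 and 0 in all 4 libraries at D10, and Cxcl2 was 84.7 to 4225 CPM against 0 to 1.24. For these 3 genes the fitted size is not given because D10 counts were at or near 0. From D3 to D10, 2 ligands were lower, Ccl7 and Ccl2, against 0.746% of all genes called, and from D1 to D3 it was 0 of 13, against 0%.

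Among 21 other chemoattractant receptors, 4 passed the filter in microglia. At D1 C5ar1, the receptor for the complement fragment C5a, rose by 2.47 (SE 0.433, adjusted p = 0.000387 in edgeR), from 151 and 332 CPM to 559, 808 and 991 CPM. Ccrl2, an atypical receptor, fell by 1.51 (SE 0.513, adjusted p = 0.0252). C5ar1 fell by 1.86 between D1 and D3 (SE 0.307, adjusted p = 0.000985). In macrophages from D1 to D10, 4 of 6 fell and 0 rose (14.6% of all genes were called), among them C5ar1 (-3.80, SE 0.402, adjusted p = 0.000187) and Fpr2 (-3.74, SE 0.992, adjusted p = 0.0245).

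Of 20 signalling and regulatory genes, 18 were tested in microglia. At D1, 2 rose and 6 fell (median log2 change -0.53), a share near the 43.2% of all genes called there. Grk3, a kinase that desensitises receptors, went from 31.8 and 40.6 CPM to 0.285 to 1.39 CPM (-4.80, SE 0.683, adjusted p = 7.96e-05 in edgeR). Rgs2, which shortens G protein signals, fell by 3.34 (SE 0.37, adjusted p = 1.48e-05), and Pik3cg, the kinase subunit that G protein-coupled receptors activate, fell by 2.43 (SE 0.357, adjusted p = 0.000104). From D1 to D3, 3 of 18 rose, among them Rgs2 (1.79) and Pik3cg (1.17), and 1 fell, against 14.7% of all genes called. The 1 that fell was Cd74 (-1.89, SE 0.325, adjusted p = 0.00131). Its median was 179 CPM at D1, 47.6 at D3 and 127 at D10. From D3 to D10, 3 of 18 were called, against 6.22% of all genes: Grk3 (1.99, SE 0.568, adjusted p = 0.0473) and Cd74 (1.67, SE 0.306, adjusted p = 0.00656) rose, and Rac2 (-0.89, SE 0.23, adjusted p = 0.0341) fell. At D10 against Ctrl it was 0 of 18 in edgeR, against 9.63%, with 4 at an unadjusted p under 0.05. In macrophages from D1 to D10, 3 of 19 rose, Rgs18 (2.75, SE 0.546, adjusted p = 0.00682), Rgs2 (1.23, SE 0.309, adjusted p = 0.0195) and Pik3cg (0.97, SE 0.29, adjusted p = 0.0382), and 1 fell. With 14.6% of all genes called in that comparison, 4 of 19 sets the list apart little. None of the 3 lists had a call between mixed and other libraries of 1 cell type, or in dendritic-like cells. In whole libraries, infiltrating against resident, 11.2% of all genes were called. Of 16 ligands, 1 was higher (Cxcl5) and 3 were lower, among them Ccl12 (-4.02) and Ccl4 (-3.16). Of 19 signalling genes 3 were higher, Cd74 (3.48), Rgs18 (2.06) and Grk3 (1.67), and 0 of 11 other receptors were called.

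Genes with the most similar pattern were sought over 54 sums of 1 cell type in 1 library, by Pearson's r of log2(CPM + 5), among 9061 genes with a mean of at least 5 CPM. The sums include 3 of D3_conflict 1. They share libraries and depth, so r is a description. Ccr2 was closest to Plac8 (r = 0.922), Ms4a4c (0.918) and Mndal (0.915), of which Plac8 and Ms4a4c are also listed here as monocyte markers. Cxcr2 was closest to Entpd3 (0.983), Asprv1 (0.98) and Il1f9 (0.976), and Ccr1 to Ltb4r1 (0.916), Mcemp1 (0.895) and Gpr35 (0.889). For Cxcr4 the closest were Sirpb1b (0.916), Dram1 (0.874) and Sirpb1c (0.867), and for Ccr7 Ier5l (0.85), P2ry10 (0.834) and Gpr171 (0.817). Cx3cr1 had no gene as close, with Tmcc3 (0.752), Hps4 (0.734) and Tubgcp5 (0.717) at the top.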

How the data were processed

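Raw counts (UMIs) per gene and cell were deposited by the authors for 25 libraries made with 10x Genomics 3' chemistry, and a deposited cell table gives cell type and cluster codes, sequencing pool, total counts and the percent of counts from mitochondrial genes. Cell Ranger 3.1.0 and the builds GRCm38 and mm10 are named per the submitters' processing notes. Filters on cells, clustering, doublet removal and the treatment of reads that fit several genes are not given in the sources used here, and no cell was removed here. The tables of all cells together were not used.

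Counts were summed per library and cell type (at least 20 cells). Sums were compared with edgeR 4.0.16 in R 4.3.3: TMM scaling, filterByExpr, and the quasi-likelihood test with time point, sex and sort as terms, Benjamini-Hochberg adjusted over all genes (threshold 0.05). DESeq2 1.42.0 was an alternative. Microglia (17 sums, 23 to 1500 cells and 135097 to 7794902 counts) came from mixed and resident libraries, macrophages (15 sums, 28 to 3019 cells and 235999 to 22068469 counts) from mixed and infiltrating ones. Dendritic-like cells gave 9 sums (25 to 1265 cells) and whole sorted libraries 12 sums. Comparisons that share a time point share its libraries. Replicates of equal number did not pair the libraries. Alternatives were run on the genes of the main comparison, except the one without a filter, a choice made after results had been seen. Scripts were tested on simulated data.

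The members and lists were chosen with earlier results of these data known. All 6 receptors are named in each comparison where they passed the filter, with up to 3 called genes of largest change from each of 3 lists (21 other receptors, 19 ligands, 20 signalling genes), and the 3 genes most alike in pattern. 1 gene of these lists is not reported here. Poisson intervals (95%) cover counting error only. Promoters were found for 5 of the 6 receptors in RefSeq.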

Additional observations from a re-analysis of the deposited data

Results flagged for a closer look

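The change of a receptor went one way in mixed libraries and the other way in resident or infiltrating libraries in 5 cases, counting only those where the 2 time points did not overlap in either sort and no mean was 0. Each is taken as the log2 of the ratio of mean CPM. The difference between the sorts was not tested in any of them. For Ccr1 in microglia, D10 against Ctrl, mixed exceeded resident libraries by 2.30, with 1 count in the mixed control. The other 4 cases are in macrophages and each involves D3, where every sort of the fit had 1 library. Ccr1 from D3 to D10 differed by 6.02 and Ccr2 by 7.77 (mixed minus infiltrating). From D1 to D3, Ccr2 differed by -5.97 and Cxcr4 by -3.41. The mixed D3 library in all 4 is D3_mixed 3, whose macrophages were 88.6% cluster 9, against 3.76% in D3_infiltrating 1. The part of this cluster in the differences was not tested.

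A single library stood far from the others of its time point in 6 of 18 groups examined. Of these, 1 does not rest on few counts, where chance flags about 1 group in 20. Cxcr4 in macrophages at D10 was 139.5 CPM in D10_infiltrating 1 and 48.8 to 57.9 in the other libraries of mixed or infiltrating cells. D10_resident 1, outside that group, had 156 CPM. The other 5 rest on 1 to 5 counts, with the other libraries at or near 0, so that rate does not apply to them. Ccr7 was 21.2 CPM (5 counts) in the D1_mixed 1 macrophages and 1.63 CPM (1 count) in the D10_mixed 1 macrophages. Cxcr2 was 0.743 CPM (3 counts) in the D10_infiltrating 1 macrophages. In the microglia of D3_resident 2, Ccr7 was 0.481 CPM and Cxcr2 was 0.481 CPM, with 1 count each.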

How the results depend on the processing

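Among the log2 changes of single receptors, alternatives left 857 values with the same direction and call, 35 gained and 36 lost a call, and 49 changed sign. Counts of called receptors stayed within 1.5 times the reported count in 216 cases and moved in 46. The falls of microglial Cx3cr1 at D1 and in mixed libraries kept their call under all alternatives run. All 24 median levels moved by less than the spread between libraries when CPM was averaged over cells. Where a value below changed, the cause was not tested.

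With DESeq2 the sign turned for Ccr7 in dendritic-like cells (-0.62), Cxcr4 in macrophages D10 against D1 (-0.007), and Ccr1 in macrophages D10 against D3 (0.16) and in microglia D10 against Ctrl (0.12). It called 1 receptor in macrophages D3 against D1, 2 in mixed against infiltrating macrophages, 1 in microglia D10 against D3 and 4 in whole libraries. Over all genes it called 95 in dendritic-like cells (4 in edgeR), 480 in macrophages D10 against D3 (64) and 1353 in microglia D10 against D3 (672), and over all alternatives macrophages D3 against D1 ranged from 0 to 900. Median-of-ratios scaling gave 0.006 for Ccr1 in macrophages D10 against D3, and moved the median of all genes in microglia to -0.17 at D1 and -0.11 at D10 against Ctrl. With no filter, Cxcr4 in macrophages D10 against D1 was -0.12, and 1 receptor was called in microglia D10 against D3.

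In mixed libraries alone, Cxcr4 in macrophages D10 against D1 was -0.37, Ccr1 in macrophages D10 against D3 was 2.53 and Ccr1 in microglia D10 against Ctrl was 2.04. There, 1 receptor was called for macrophages D10 against D1. Calls against D3 are not given, as each sort had 1 macrophage library at D3 in these fits. In infiltrating libraries alone, Ccr2 was -0.85 for D10 against D1, -0.94 for D10 against D3 and 0.092 for D3 against D1. Without the sort term Ccr2 in macrophages D10 against D1 was -0.032, and 1 receptor was called there and in microglia D1 against Ctrl. Without the sex term Ccr1 in microglia D10 against Ctrl was 0.32, and 4 receptors were called in whole libraries.

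With the sequencing pool as a term, microglial Ccr1 was 0.71 for D10 against Ctrl and 3.47 for D10 against D3, Cx3cr1 was -1.53 for D10 against D3, and 0 receptors were called in mixed against infiltrating macrophages. D3_conflict 1 added as infiltrating gave 1 called receptor in dendritic-like cells and in macrophages D10 against D3, and added as resident 0 in whole libraries. With at least 50 cells, or without cluster 2, 1 receptor was called in mixed against resident microglia.

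The replicate block (mixed microglia, number in the title) gave 2.06 for Cx3cr1 (adjusted p = 0.048) and -6.68 for Ccr1 (adjusted p = 0.000848) from D1 to D3 in edgeR, and 0.72 for Ccr1 from D3 to D10. Libraries of equal number at D1 and D3 correlated at -0.011, 0.116 and 0.095, so the numbers pair nothing.

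Leaving out each library in turn turned the sign of 12 changes that had not passed the test. The ranges were -0.493 to 0.056 for Ccr1, -10.54 to 1.22 for Ccr7 and -1.78 to 0.35 for Cxcr4 in dendritic-like cells. In macrophages they were -0.28 to 0.65 (Cxcr4, D10 against D1), -1.43 to 2.00 (Ccr1, D10 against D3), -0.028 to 2.06 (Cxcr4, D10 against D3) and -2.04 to 0.093 (Cxcr4, D3 against D1). In microglia they were -0.40 to 1.57 (Cxcr4, D1 against Ctrl), -1.41 to 3.80 and -1.37 to 0.19 (Ccr1 and Cx3cr1, D10 against Ctrl) and -0.884 to 0.041 (Ccr1, D10 against D3), and in whole libraries -0.57 to 7.81 (Cxcr2). The number of called receptors then ranged from 0 to 1 in dendritic-like cells, 1 to 2 in macrophages D10 against D1, 0 to 1 in mixed against infiltrating macrophages, 0 to 1 in microglia D10 against Ctrl, 0 to 2 in D10 against D3, 1 to 3 in D3 against D1, 1 to 2 in mixed against resident microglia and 0 to 5 in whole libraries. The limit of 50 cells and the pool term were not run for dendritic-like cells, and pool could not be fitted for microglia D1 against Ctrl, D3 against D1 or mixed against resident, or for macrophages D10 against D1 or D3.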

Other observations

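D3_conflict 1, whose labels disagree on the sort, held 3800 cells and enters no comparison between groups. Its macrophages had 59.6 CPM of Cx3cr1, 392 of Ccr1, 330 of Ccr2, 85.9 of Cxcr4 and 6.59 of Ccr7. Its dendritic-like cells had 95.7 CPM of Cx3cr1, 467 of Ccr2 and 65.9 of Ccr7, and its neutrophil-like cells 435 CPM of Cxcr2 and 354 of Cxcr4.

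Infiltrating libraries also held a few cells with the microglia code, which entered only the comparison of whole libraries. The 36 such cells of D10_infiltrating 2 had 47.6 CPM of Cx3cr1, 11.9 of Ccr2 and 11.9 of Cxcr4. The 41 such cells of D21_infiltrating 1 had 195 CPM of Cx3cr1, 31.2 of Ccr2 (4 counts) and 77.9 of Cxcr4 (10 counts), above the Cxcr4 of the mixed and resident microglia, which reached 13.3 CPM.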
